A study of Mus musculus with 33 samples.

Results

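The mitochondrial respiratory chain and ATP synthase are built from complexes I to V, and most of their subunits are encoded in the nucleus. The genes described here are the nuclear genes whose symbols follow the naming of these subunits (Nduf followed by a, b, c, s or v, Sdh, Uqcr, Cox4 to Cox8, and Atp5), without pseudogenes and repeated names. Of the 27825 genes in each tongue table, 73 had such a name, and 71 reached 1 RPM (RPM being reads scaled to a common total per library) in at least 3 libraries of a tongue table. The other two, Cox7b2 and Cox8c, stayed below it, with highest values of 0.434 and 0.0244 RPM. The 71 genes comprised 30 of complex I, 4 of complex II, 8 of complex III, 13 of complex IV, 14 of complex V and 2 (Atp5s and Atp5sl) that carry the name of ATP synthase without being among its usual subunits. No Cox4 gene was among the 71, because the naming pattern did not take symbols such as Cox4i2.

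Whole tongues of mouse embryos (E13.5), newborns (P0) and pups (P20) gave 3 wild type and 3 biallelic RNA libraries per stage. Costal chondrocytes of E18.5 embryos came from 5 wild type and 6 biallelic animals. Biallelic animals are the labels' Zac1o knockout mice, in which the imprinted gene Zac1 (Plagl1, a zinc finger transcription factor normally read from the paternal copy) is expressed from both alleles. The groups thus differ in the dose of an intact gene in every cell that expresses it, and no tissue restriction is given in the labels. Tongue libraries were made from RNA depleted of ribosomal RNA. The E13.5 RNA was extracted with the AllPrep kit and the P0 and P20 RNA with TRIsure, so that stage and extraction cannot be told apart in the step from E13.5 to P0. Chondrocytes were released from ribcages by trypsin and collagenase, sorted for surface Cd24a and Cd200, and their polyadenylated RNA was amplified by the SMART-seq2 method, which works from few cells.

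Electrons enter the chain at complex I (from NADH) or complex II (from succinate), pass through complex III, and reach oxygen at complex IV, cytochrome c oxidase. The proton gradient that forms on the way drives complex V, the ATP synthase. Several small subunits of complex IV exist as a pair of genes, a form found in most tissues (Cox6a1, Cox7a2, Cox8a) and a form typical of heart and skeletal muscle (Cox6a2, Cox7a1, Cox8b). The tongue is largely skeletal muscle under a keratinised epithelium, and its muscle fibres mature around and after birth.

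Promoter sequences were available for 57 of the 71 genes, in the RefSeq annotation of GRCm38.p6. Cox6a2, Cox6c, Atp5a1, Sdhc and Uqcrc2 were among the others. In a window from 250 bases before to 50 bases after each start, 6 motifs were searched on both strands. The ETS motif CCGGAAG, bound by GABP among others, was in 28.1% of the 57 windows (16 genes), in 18% of those of the 9459 tested genes that matched and in 9.93% of all 27025 promoters. The NRF1 motif was in 12.3% of the 57 windows against 3.04% of the tested and 1.41% of all. The ERR motif AAGGTCA, of the estrogen-related receptors, was in 12.3% against 3.75% and 5.38%. The YY1 motif AAGATGGC was in 14.0% against 4.62% and 3.19%. The E-box CANNTG, which the muscle factors of the MyoD family bind, was in 66.7% against 68.0% and 75.0%. The MEF2 motif was in 0 of the 57 windows, against 2.4% of the tested and 3.7% of all. These matches describe letters and not occupied sites.

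The 150 bases before the start are given below for 2 muscle-type genes of complex IV and their counterparts, because the stage differences are largest between such pairs. Capitals mark the E-box, whose first base lay 124 bases before the start in Cox7a1, 35 in Cox7a2, 19 in Cox8b and 102 in Cox8a.
Cox7a1, chr7:30184021-30184170, plus strand: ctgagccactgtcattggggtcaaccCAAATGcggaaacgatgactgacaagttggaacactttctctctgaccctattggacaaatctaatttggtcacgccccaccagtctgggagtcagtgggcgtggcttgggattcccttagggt
Cox7a2, chr9:79759854-79760003, minus strand: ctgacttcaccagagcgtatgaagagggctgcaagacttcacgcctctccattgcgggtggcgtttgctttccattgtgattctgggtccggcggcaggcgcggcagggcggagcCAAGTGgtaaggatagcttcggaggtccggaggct
Cox8b, chr7:140900447-140900596, minus strand: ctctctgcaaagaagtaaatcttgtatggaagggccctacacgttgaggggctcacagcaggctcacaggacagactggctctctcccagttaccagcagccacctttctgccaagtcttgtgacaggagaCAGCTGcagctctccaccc
Cox8a, chr19:7217617-7217766, minus strand: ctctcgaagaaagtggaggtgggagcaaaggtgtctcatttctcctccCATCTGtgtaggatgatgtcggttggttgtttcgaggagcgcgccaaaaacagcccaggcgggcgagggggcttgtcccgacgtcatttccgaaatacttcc

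Another 3 promoters show the motifs that were more frequent among the 57 genes. Capitals mark the NRF1 motif in Ndufa11 (first base 61 before the start), the ETS motif read on the opposite strand in Atp5e (102 before) and the ERR motif in Ndufb4 (55 before). Each was picked for the largest rise from P0 to P20 in wild type tongue among single-start genes with that motif in the bases shown. Their rises of 0.81, 1.26 and 1.25 on the log2 scale follow from that choice and say nothing about the motifs.
Ndufa11, chr17:56717612-56717761, plus strand: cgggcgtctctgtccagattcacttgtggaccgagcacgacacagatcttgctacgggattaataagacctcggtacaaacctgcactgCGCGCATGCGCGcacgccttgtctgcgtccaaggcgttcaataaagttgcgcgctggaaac
Atp5e, chr2:174464102-174464251, minus strand: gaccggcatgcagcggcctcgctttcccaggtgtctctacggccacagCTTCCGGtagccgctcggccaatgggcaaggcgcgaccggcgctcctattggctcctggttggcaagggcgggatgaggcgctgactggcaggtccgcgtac
Ndufb4, chr16:37654369-37654518, minus strand: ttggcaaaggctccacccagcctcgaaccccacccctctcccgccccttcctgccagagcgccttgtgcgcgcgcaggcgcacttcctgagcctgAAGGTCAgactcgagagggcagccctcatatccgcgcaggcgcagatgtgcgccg

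Depth was 36832717 to 92249098 reads per tongue library. In chondrocytes it was 2938462 to 7887305 reads per wild type animal and 7221013 to 15689559 per biallelic animal. These are the totals behind the RPM values. For tongue, 3 reads, the limit that a count of 0 allows, equalled between 0.0325 and 0.0814 RPM (for counting error alone). For chondrocytes, 3 reads equalled 0.38 to 1.02 RPM in wild type and 0.191 to 0.415 RPM in biallelic animals. Chondrocyte depth thus went largely with genotype, and in the labels only biallelic animals have repeat libraries. The part of depth in the chondrocyte differences was not tested. As a check of the labels, Plagl1 levels did not overlap between genotypes. At E13.5 biallelic libraries had 157 to 275 RPM against 66.1 to 105 in wild type. The P0 ranges were 430 to 499 and 221 to 243, the P20 ranges 50.9 to 77.1 and 23.1 to 30.5, and those of the chondrocytes 17.5 to 50 and 3.18 to 15.3. Muscle markers were detected in the tongues, with 20 of 20 listed genes at a mean of 1 RPM or more at P0 and 16 of 20 at E13.5. Markers of epithelium (11 of 11), endothelium (8 of 8) and mesenchyme (8 of 8) reached that mean at P0 as well. In the sorted cells, 11 of 16 chondrocyte markers and 19 of 19 leukocyte markers reached a mean of 1 RPM.

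Between birth and P20 the respiratory chain genes rose almost as a whole. In wild type tongue 62 of the 71 genes rose and 2 fell, against 31.9% higher and 14.9% lower among all 13603 genes tested. In biallelic tongue 66 rose and 2 fell, against 30.0% and 17.3%. A gene was called when its adjusted p (limma on log2 RPM, Benjamini-Hochberg over all genes) was under 0.05. The median difference of the 71 genes was 0.80 on the log2 scale in wild type and 1.05 in biallelic tongue, while the median of all genes was 0.22 and 0.18. Calls were shared by both genotypes in 61 rising and 2 falling genes, and none was called in opposite directions. Each library was scaled to its own read total, and the 3 tongue tables were not scaled to each other. Centring every library on its median gene took 0.22 off the median of all genes in wild type, and 46 of the 71 genes then rose. The shares of all genes given above belong to the scale without centring and are no background for that count.

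**Figure D1:**
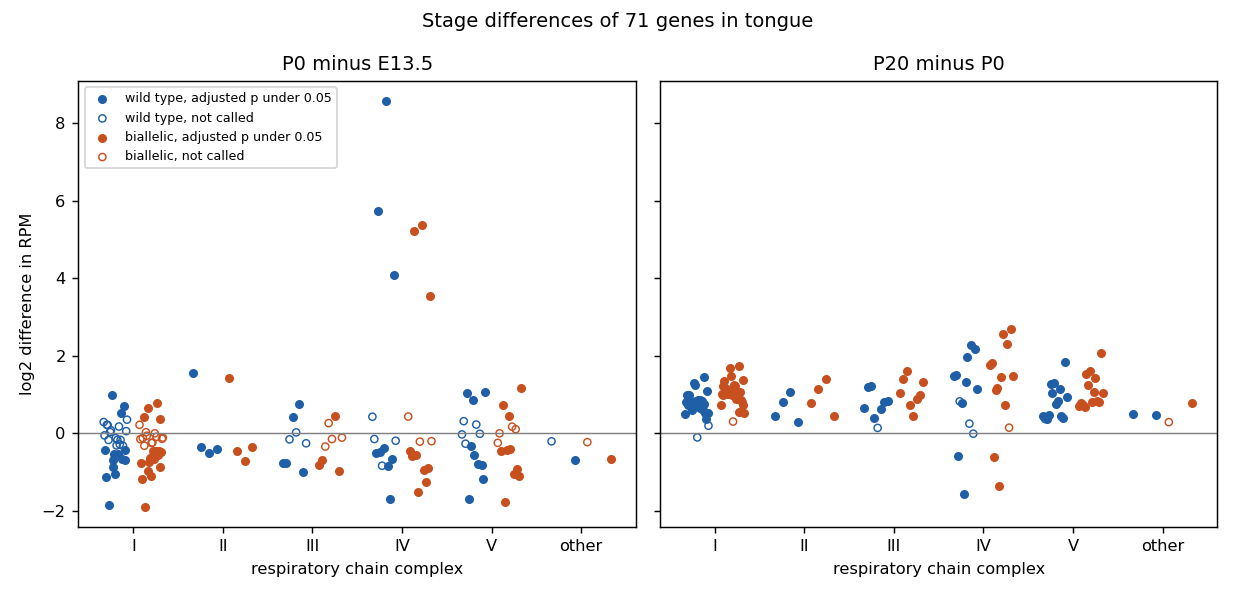
Log2 difference in RPM between stages (left, P0 minus E13.5; right, P20 minus P0) for each of the 71 genes, by complex, in wild type (blue) and biallelic (orange) tongue; filled points had an adjusted p under 0.05. From P0 to P20 nearly all points lie above 0, while from E13.5 to P0 they lie on both sides and 3 complex IV genes stand far above the rest.

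The step from E13.5 to P0 split the same genes. In wild type tongue 12 rose and 30 fell, against 37.9% higher and 40.1% lower among all genes tested, and the median difference was -0.26 (all genes, -0.05). In biallelic tongue 12 rose and 35 fell, against 39.8% and 37.7%, with a median of -0.34 (all genes, 0.04). Shared calls numbered 11 rising and 29 falling genes, with 0 in opposite directions. The balance in wild type depended on scaling. With libraries centred on their median gene, 20 rose and 20 fell, and with RPM rescaled to listed genes 20 rose and 24 fell. The shares of all genes above do not belong to these scales. Across both steps in wild type, 27 genes fell and then rose, 24 rose only after birth, and 11 rose in both steps. Those 11 were Atp5d, Atp5g1, Atp5l, Cox7a1, Cox8b, Ndufb10, Ndufs4, Ndufs7, Sdha, Uqcrc1 and Uqcrfs1. Atp5b, Ndufb7, Ndufv3 and Uqcrc2 were called in neither. Both steps share the P0 libraries, so a high or low P0 value enters both with opposite sign. Shares of all genes with these joint patterns were not worked out, so the patterns cannot be called particular to these genes.

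Transcript length moved with these differences. The 71 transcripts are short, 315 to 3171 nt with a median of 714 nt, and 47 of them are under 1000 nt, while the median of the 13468 tested genes with a length was 2840 nt. From E13.5 to P0 in wild type, all tested genes under 500 nt had a median of -1.48 and those of 2000 nt or more a median of 0.11. The 10 respiratory chain genes under 500 nt had a median of -0.41 and the 24 of 500 to 700 nt a median of -0.50, both above the -1.48 and -0.72 of all genes in those ranges. From P0 to P20 all genes under 500 nt had a median of 0.80 and those of 2000 nt or more 0.19, against 1.17 and 0.49 for the respiratory chain genes. Their median exceeded that of all genes in each of the 5 length ranges at this step. Spearman's rho between length and difference across the 71 genes was 0.27 for the first step and -0.43 for the second. Pearson's r with log2 length was -0.04 and -0.29 (genes are not independent replicates). With the length trend of all genes subtracted within each library, an alternative chosen after the data were seen, 46 genes rose and 5 fell from E13.5 to P0 in wild type, against 38.6% and 38.7% of all genes on that scale. From P0 to P20, 38 rose and 4 fell, against 21.7% and 22.5% of all genes.

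**Figure D2:**
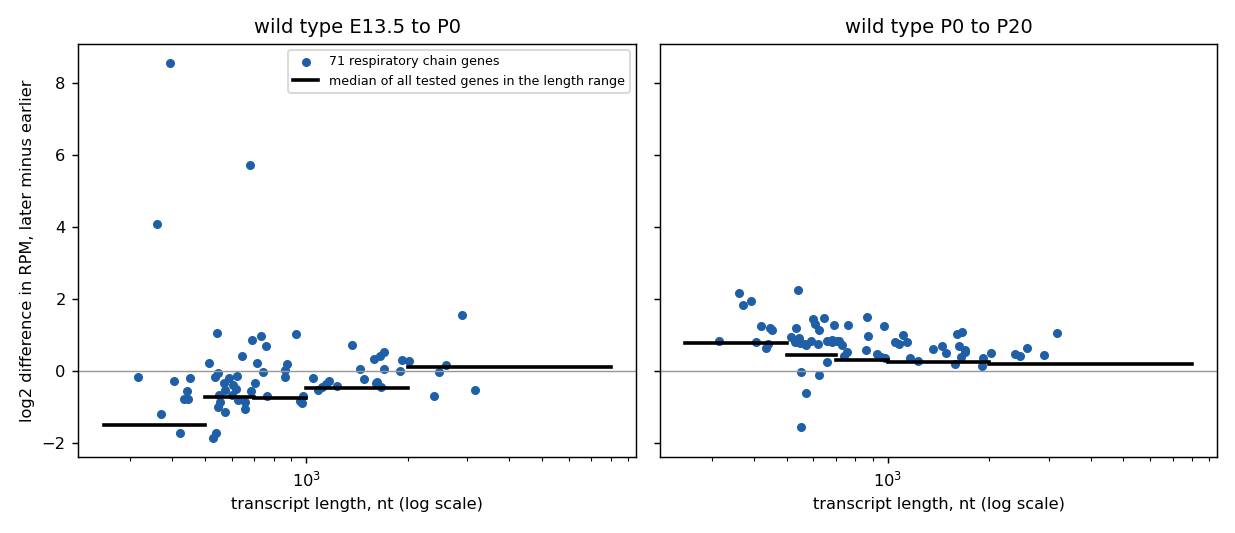
Log2 difference in RPM (y axis) against transcript length in nt (log scale) for the 71 genes in wild type tongue, from E13.5 to P0 (left) and from P0 to P20 (right); black bars are medians of all tested genes in 5 length ranges, the shortest and the longest range being open-ended and drawn to the edge. The bars of the short ranges lie lower in the left panel and higher in the right one, and the blue points of the right panel lie mostly above the bars.

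Complex IV held the largest differences of both steps. From P0 to P20 its 13 genes had a median of 1.14 in wild type and 1.45 in biallelic tongue. In the same order, 8 and 10 rose (31.9% and 30.0% of all genes), and 2 fell in each (14.9% and 17.3%). Cox7a1, the muscle form of subunit 7a, gave 0.0518, 0.0172 and 0.106 RPM in the 3 wild type libraries at E13.5, which are 2, 0 and 5 reads. It gave 19.1, 19.7 and 13.49 RPM at P0, and 85.8, 57.6 and 59.7 RPM at P20. The stages did not overlap at either step. Cox7a1 passed the 1 RPM minimum only at P0 and P20, so its rise from E13.5 was partly fixed by the selection. The fitted rise to P0 was 8.56 ± 0.44 on the log2 scale (SE, adjusted p = 5.21e-11, limma). It depends on the value the authors gave to 0 reads, and with 1 RPM added before the logarithm it was 4.11. The rise to P20 was 1.95 ± 0.44 (adjusted p = 0.00196).

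Cox7a2, the counterpart of Cox7a1 in most tissues, gave 36.3, 32.1 and 34.1 RPM at E13.5, 20.4, 18.8 and 17.8 at P0, and 27.6, 19.1 and 21.6 at P20 in wild type tongue. It fell by 0.85 between E13.5 and P0, and its difference of 0.25 between P0 and P20 was not called (adjusted p = 0.131). Per kilobase of transcript, Cox7a1 stood at 0.148 ± 0.114 RPM per kb at E13.5 against 51.9 ± 3.15 for Cox7a2, and at 172 ± 40.0 against 34.6 ± 6.63 at P20 (SD, n = 3). At P0 the values were 44.4 ± 8.74 and 28.8 ± 2.03, so the order of the forms was already turned at birth on this scale.

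Cox8b, the muscle form of subunit 8, gave 0.544, 2.46 and 1.23 RPM at E13.5, 24.2, 17.8 and 18.49 at P0, and 101, 73.7 and 95.7 at P20 in wild type. Each stage lay above the one before without overlap, by 4.08 ± 0.42 and then 2.16 ± 0.42 on the log2 scale (adjusted p = 1.76e-07 and 0.000647). Cox8a gave 60.9, 39.2 and 47.0 RPM at E13.5, 34.3, 30.7 and 27.4 at P0, and 33.8, 27.0 and 31.0 at P20. It fell by 0.65 to P0, and its P0 and P20 values overlapped. At P20 Cox8b, at 251 ± 40.5 RPM per kb, was second among the 71 genes to Atp5b (the catalytic beta subunit of ATP synthase, 341 RPM per kb).

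Cox6a2, the muscle form of subunit 6a, gave 0.440, 1.39 and 0.761 RPM at E13.5, 45.8, 42.4 and 35.7 at P0, and 85.0, 71.5 and 63.1 at P20 in wild type. It rose by 5.73 ± 0.36 to P0 (adjusted p = 4.31e-10). All P20 values lay above all P0 values, yet the difference of 0.82 was not called (adjusted p = 0.0687). Cox6a1, its counterpart, gave 43.9, 27.4 and 32.4, then 26.1, 22.1 and 23.1, then 16.05, 14.97 and 16.2 RPM. Its 3 stages did not overlap, and it fell by 0.51 and by 0.59, the only one of the 71 genes called lower in both steps in wild type.

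Within-library ratios of muscle to common form cancel the scaling of a library. Over 6 libraries per stage, with stage labels permuted within genotype, the log2 ratio of Cox7a1 to Cox7a2 rose by 7.86 and then by 1.77, that of Cox8b to Cox8a by 4.59 and then 2.36, and that of Cox6a2 to Cox6a1 by 6.02 and then 1.58. Each of these 6 changes had p = 0.005 by exact two-sided permutation, the smallest the 400 arrangements allow, and an adjusted p of 0.006 over the 12 ratios tested. With the length trend removed the later changes were 1.52, 2.16 and 1.66. The ratio of Cox7a1 to Cox7a2 RPM in wild type was between 0.0005 and 0.0031 at E13.5. At P0 the ratio was between 0.7595 and 1.0488 and at P20 between 2.7615 and 3.1082. In biallelic tongue it ran from 0.0064 to 0.0114, 0.6276 to 0.7504 and 2.3944 to 2.5884. Biallelic values thus lay above the wild type range at E13.5 and below it at P0 and P20, a difference that was not tested. The E13.5 ratios, and with them the change of 7.86, rest on few Cox7a1 reads. These were 2, 0 and 5 in wild type and 16, 11 and 9 in biallelic tongue. The lowest ratio uses the value the authors gave to 0 reads, and the early rise of Cox7a1 was partly fixed by the selection.

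**Figure D3:**
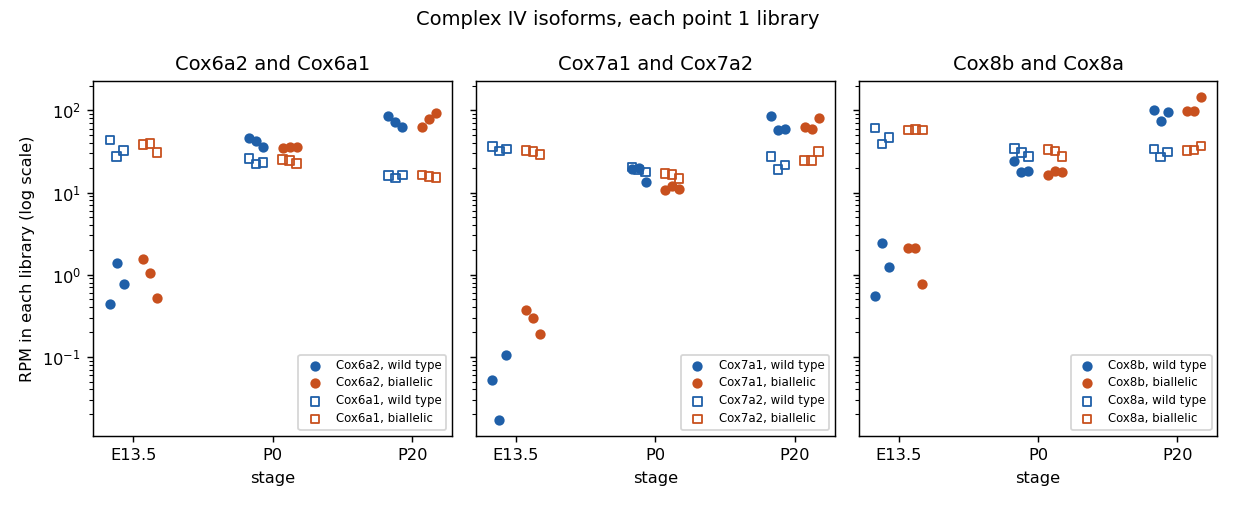
RPM of each library (log scale) at E13.5, P0 and P20 for 3 pairs of complex IV genes; filled circles are the muscle form, open squares the common form, blue is wild type and orange biallelic. Filled circles lie below the squares at E13.5 and above them in every P20 library.

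The paired genes Cox6b1 and Cox6b2 (the latter a testis form) went the other way. Cox6b2 gave 1.04, 1.07 and 0.634 RPM at E13.5, 0.406, 0.537 and 0.564 at P0, and 0.109, 0.155 and 0.287 at P20 in wild type, which is 5, 9 and 13 reads at P20. The stages did not overlap. Cox6b2 passed the 1 RPM minimum only at E13.5, so its fall from that stage was partly fixed by the selection. It fell by 1.56 ± 0.46 from P0 to P20 (adjusted p = 0.011, limma), a call lost without P20 wild type replicate 1. Against Cox6b1 the log2 ratio changed by -2.41 over that step (exact permutation p = 0.005, adjusted p = 0.006).

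Among complex IV genes with no muscle counterpart in the list, Cox7c, Cox5b, Cox5a and Cox6c rose most after birth. Cox7c, a small structural subunit, gave 11.5, 12.6 and 15.7 RPM at E13.5, 3.67, 4.07 and 4.46 at P0, and 22.9, 16.8 and 19.2 at P20 in wild type. P0 was thus the lowest stage in every comparison of libraries, and the differences were -1.70 ± 0.23 and 2.27 ± 0.23 (adjusted p = 4.77e-06 and 1.86e-06). The gene lies on the same strand as the short RNA gene Gm22574, whose reads may be counted with it. Cox5b and Cox5a, subunits on the matrix side of the enzyme, rose by 1.497 ± 0.18 and 1.48 ± 0.22 from P0 to P20 (adjusted p = 7.65e-06 and 5.98e-05). Cox6c, which sits in the membrane, went from 16.7, 14.8 and 14.9 RPM at P0 to 43.7, 34.9 and 37.4 at P20 in wild type, without overlap (1.32 ± 0.13, adjusted p = 1.09e-06). In biallelic tongue the rises were 2.30 for Cox7c, 1.82 for Cox5b and 1.76 for Cox5a.

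In complex I, 28 of 30 genes rose and 0 fell from P0 to P20 in wild type, against 31.9% and 14.9% of all genes. In biallelic tongue 29 rose and 0 fell, against 30.0% and 17.3%. The medians were 0.79 and 1.04. Before birth 3 rose and 11 fell in wild type, against 37.9% and 40.1% of all genes. In biallelic tongue 4 rose and 14 fell over that step, against 39.8% and 37.7%. Ndufs5, an accessory subunit, gave 1.56, 1.54 and 1.51 RPM at P0 and 5.17, 3.57 and 4.1 at P20 in wild type, with no overlap and a difference of 1.46 ± 0.23 (adjusted p = 9.77e-05). Ndufb10, an accessory subunit of the membrane arm, rose in both steps, from 13.8, 9.94 and 9.53 RPM at E13.5 to 22.8, 21.7 and 20.1 at P0 and 42.7, 32.7 and 31.7 at P20. Ndufa7, another accessory subunit, had the largest fall of the 71 genes before birth, from 44.2, 54.1 and 52.9 RPM at E13.5 to 13.6, 14.4 and 13.47 at P0, and stood at 27.6, 21.6 and 24.6 at P20. The fall was -1.86 ± 0.12 (adjusted p = 7.13e-10) and -1.89 in biallelic tongue. Ndufb3, of the membrane arm, was among the 8 largest rises after birth in biallelic tongue, from 5.13, 3.89 and 4.27 RPM to 12.4, 14.2 and 15.8 (1.68 ± 0.17, adjusted p = 1.77e-06). Falls of Ndufa2, Ndufb6 and Ndufb4 of -1.14, -1.05 and -0.88 from E13.5 to P0 in wild type shrank to -0.04, -0.05 and -0.15 with the length trend removed and were not called.

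Complex II has only 4 nuclear subunits and shares succinate dehydrogenase activity with the tricarboxylic acid cycle. Sdha, its flavoprotein and with 2900 nt one of the longest transcripts of the 71, gave 26.7, 33.2 and 30.9 RPM at E13.5, 94.0, 90.5 and 82.0 at P0, and 128, 125 and 109 at P20 in wild type. Stages did not overlap, and the rise to P0 was 1.56 ± 0.11 (adjusted p = 2.51e-09). Sdhb, Sdhc and Sdhd, its iron-sulfur protein and membrane anchors, fell over the same step by 0.36, 0.52 and 0.41. All 4 genes rose from P0 to P20, against 31.9% of all genes. The opposite movement of Sdha and its partners before birth was also called in biallelic tongue. There 1 gene rose and 3 fell, against 39.8% and 37.7% of all genes.

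In complex III, 7 of 8 genes rose from P0 to P20 in wild type and 8 of 8 in biallelic tongue. The shares of all genes rising were 31.9% and 30.0%, and the medians of complex III were 0.73 and 1.01. The catalytic Rieske protein Uqcrfs1 rose in both steps in wild type, by 0.74 and 0.62, and so did the core protein Uqcrc1, by 0.43 and 0.39. Uqcrh, the hinge protein, went from 41.0, 34.3 and 42.3 RPM at E13.5 to 21.0, 18.4 and 19.1 at P0. That difference of -1.004 ± 0.11 (adjusted p = 4.33e-07) became 0.13 with the length trend removed.

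In complex V, 13 of 14 genes rose from P0 to P20 in wild type and 14 of 14 in biallelic tongue. The shares of all genes rising were 31.9% and 30.0%, and the medians of complex V were 0.80 and 0.94. Atp5k, the small subunit e of the membrane part, gave 8.18, 6.05 and 6.17 RPM at E13.5, 2.82, 3.14 and 2.99 at P0, and 13.1, 9.51 and 9.52 at P20 in wild type. P0 was the lowest stage without overlap, and the later rise was 1.83 ± 0.24 (adjusted p = 1.69e-05). Its earlier fall of -1.18 became 0.29 with the length trend removed. Atp5e, the epsilon subunit, followed the same course, with 52.0, 50.8 and 47.6 RPM at E13.5, 16.003, 17.5 and 12.8 at P0 and 44.1, 32.2 and 34.6 at P20. Atp5d, the delta subunit of the central stalk, rose by 1.04 ± 0.10 to P0 (adjusted p = 7.72e-08). Atp5l, subunit g of the membrane part, rose by 1.05 ± 0.17 (adjusted p = 3.67e-05).

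The c subunit of the ATP synthase rotor is encoded by Atp5g1, Atp5g2 and Atp5g3, whose mature proteins are the same. Atp5g1 gave 11.2, 11.2 and 11.3 RPM at E13.5, 20.6, 20.5 and 20.03 at P0, and 62.1, 48.3 and 41.3 at P20 in wild type. Its log2 ratio to Atp5g2 rose by 1.13 and then by 0.67 (exact permutation p = 0.005 each, adjusted p = 0.006). The ratio of Atp5g3 to Atp5g2 rose by 0.68 and then by 0.17 (exact permutation p = 0.005 and 0.025, adjusted p = 0.006 and 0.0273), the second of which was lost when any of 4 single libraries was left out. Atp5g2 has 2 near-identical copies in the genome, Gm10175 and Gm10231, so its counts are uncertain.

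Other genes of the pathway were followed over the same steps in wild type tongue. Of all genes tested, 37.9% rose and 40.1% fell from E13.5 to P0, and 31.9% rose and 14.9% fell from P0 to P20. Medians were 0.63 then 0.77 for tricarboxylic acid cycle enzymes, -1.08 then 0.26 for mitochondrial ribosomal proteins, -0.56 then 0.26 for assembly factors. For the 71 genes they were -0.26 and 0.80. All 12 tested enzymes of the tricarboxylic acid cycle had higher means at P20 than at P0 in wild type and 10 rose, while from E13.5 to P0 9 rose and 1 fell. Idh3a, a subunit of the NAD-dependent isocitrate dehydrogenase, rose by 2.73 ± 0.13 to P0 (adjusted p = 3.35e-11), and Ogdh, of the 2-oxoglutarate dehydrogenase, by 1.77 and then 0.99. Of 75 mitochondrial ribosomal proteins, 3 rose and 59 fell from E13.5 to P0, and 29 rose and 6 fell from P0 to P20. Of 27 assembly factors of complexes I to V, 4 rose and 18 fell and then 11 rose and 1 fell. Cox17, a copper chaperone of complex IV, and Cox10, which makes its heme, rose before birth by 1.32 and 1.33.

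Of 19 regulators of mitochondrial genes, 6 rose and 8 fell before birth and 8 rose after it in wild type. The shares of all genes were 37.9% rising and 40.1% falling before birth, and 31.9% rising after it. Ppargc1a, a coactivator of oxidative metabolism, went from 1.73 to 2.67 RPM at E13.5 to 35.8 to 122 RPM at P0 (log2 difference 4.77, adjusted p = 1.08e-08). Ppara, a nuclear receptor of fatty acid oxidation, rose by 5.45 over that step (adjusted p = 2.21e-08). Esrrg and Esrrb, estrogen-related receptors, rose by 1.61 and 1.64 from P0 to P20 (adjusted p = 0.000129 and 0.0108). Tfam and Tfb1m, factors of mitochondrial DNA transcription and ribosomal RNA methylation, fell by 1.29 and 1.19 to P0. Among subunits and partners whose names the selection did not take, Cyc1 (cytochrome c1 of complex III) rose by 0.76 to P0, and Atpif1 (the inhibitor of ATP synthase) fell by 2.60 and then by 0.55.

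Muscle markers moved with the stage as well. In wild type tongue, 18 of 20 rose and 2 fell from E13.5 to P0 (median 4.74), and their summed level was 401 to 673.3 RPM at E13.5, 8956 to 13210 RPM in newborns and 12310 to 16680 RPM at P20. The summed level of epithelial markers was 276.9 to 564, 2399 to 3118 and 6397 to 8891 RPM at the same stages. The summed level of the 71 genes was 2705 ± 274 RPM at E13.5, 2643 ± 184 at P0 and 4098 ± 527 at P20 (SD, n = 3), with E13.5 and P0 closer to each other than the spread between libraries. Between P0 and P20, 6 muscle markers rose and 8 fell, with a median of -0.04. All 8 endothelial markers rose from E13.5 to P0 in wild type (median 2.0). The adipocyte markers Lpl and Fabp4 rose at both steps, and of the 10 cell cycle genes 10 fell at the first step and 7 at the second. In whole tongue, a change in the share of a cell type cannot be told apart from a change in RNA per cell, and the part of tissue makeup in the stage differences was not tested.

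Genotype was compared within each table. No respiratory chain gene reached an adjusted p under 0.05 in any of the 4 tables (limma), where 0.0160% of all genes tested were called at P0 and 0 in each of the other 3 tables. At an unadjusted p under 0.05, 1 of the 70 tested genes was higher and 1 lower in E13.5 biallelic tongue, against 0.784% and 2.47% of all genes. Lower at that threshold were 9 of 70 at P0 (1.31% of all genes), 0 of 70 at P20 (1.15%) and 9 of 67 for chondrocytes (7.71%). The voom fit on recovered reads likewise called 0 of them in each table. For the chondrocytes it put 24 of 67 lower at an unadjusted p under 0.05, against 12.3% of all genes in that fit.

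At P0 most of the genes had lower means in biallelic than in wild type tongue. Lower means were found for 63 of 70 genes, with a median log2 difference of -0.18 against 0.04 for all genes, and in 27 genes every biallelic library lay below every wild type library, against 3.07% of all genes. An unadjusted p below 0.05 with a lower mean was found for 9 of the 70 and for 1.31% of all genes. By complex, 29 of 30 genes of complex I, 4 of 4 of complex II, 8 of 8 of complex III, 9 of 12 of complex IV and 12 of 14 of complex V had lower means. Genes in 1 sample vary together, so these counts do not stand for independent observations. Without wild type replicate 3 the number lower at an unadjusted p under 0.05 was 26 (2.29% of all genes in that fit), without wild type replicate 1 it was 2 (0.614%), and without biallelic replicate 3 it was 1 (0.672%).

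Cox7a1 had the largest difference, with 19.1, 19.7 and 13.49 RPM in wild type and 10.7, 12.1 and 11.2 in biallelic tongue at P0. Its groups did not overlap, and the log2 difference was -0.60 ± 0.16 (unadjusted p = 0.00598, adjusted p = 1, limma). Ndufb10 gave 22.8, 21.7 and 20.1 against 18.8, 17.0 and 16.5 RPM, and Atp5g1 gave 20.6, 20.5 and 20.03 against 18.02, 17.1 and 15.6. Their differences were -0.31 ± 0.10 and -0.27 ± 0.10, again without overlap and with an adjusted p of 1. Ndufb7, of complex I, gave 26.0, 27.9 and 23.1 against 21.7, 20.8 and 19.5 RPM (-0.31 ± 0.11), also without overlap. Sdha gave 94.0, 90.5 and 82.0 against 71.1, 79.7 and 80.5 RPM, the highest biallelic value lying just below the lowest wild type one. Muscle markers lay the same way at P0, with 17 of 20 lower in biallelic tongue (median -0.25) and summed levels of 8670 to 9879 against 8956 to 13210 RPM. So did 11 of 12 enzymes of the tricarboxylic acid cycle (median -0.21). Muscle genes kept in separate lists did not all follow. Of the cardiac-type muscle genes, 2 of 2 tested had higher means in biallelic tongue (median 0.41). The fetal myosin Myh3 stood at 427 to 511 RPM in biallelic against 255 to 391 in wild type tongue. Myh8, the other fetal myosin, stood at 3590 to 3910 against 3590 to 4260. The part of muscle content in the lower means was not tested.

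At P20 the means lay the other way. Of 70 genes, 65 had higher means in biallelic tongue, with a median of 0.13 against -0.02 for all genes. Atp5l alone had no overlap between groups, with 10.3, 10.4 and 11.2 RPM in wild type and 11.7, 11.7 and 11.3 in biallelic tongue, against 3.14% of all genes. Ndufa8, an accessory subunit of complex I, had the smallest p, with 28.7, 24.4 and 23.4 against 26.5, 30.1 and 34.0 RPM and a difference of 0.24 ± 0.13 (adjusted p = 1). Biallelic replicate 3 was the highest of its group for Ndufa8, and its sum over the 71 genes was 5200 RPM against 3764 to 4706 in wild type. Without that library 38 of 70 genes were higher and the median was 0.01. All 8 endothelial markers had higher means in biallelic tongue at P20 (median 0.36, 2 at an unadjusted p under 0.05), and 7 of 8 mesenchyme markers had lower means (median -0.28). The part of these cells in the higher means was not tested.

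At E13.5 means lay on both sides, with 25 genes higher and 45 lower in biallelic tongue and a median of -0.06, the same as for all genes. With libraries centred on their median gene the counts were 36 and 34. Atp5j, the coupling factor 6 of ATP synthase, gave 22.8, 20.6 and 19.3 RPM in wild type and 14.7, 19.1 and 14.1 in biallelic tongue, a difference of -0.40 ± 0.16 without overlap (adjusted p = 0.992). Atp5d gave 20.9, 23.3 and 19.5 against 24.5, 27.9 and 25.6 RPM, a difference of 0.30 ± 0.13 without overlap (adjusted p = 0.992). In all, 3 genes lay lower without overlap (background 7.69%) and 2 higher (background 2.43%).

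**Figure D4:**
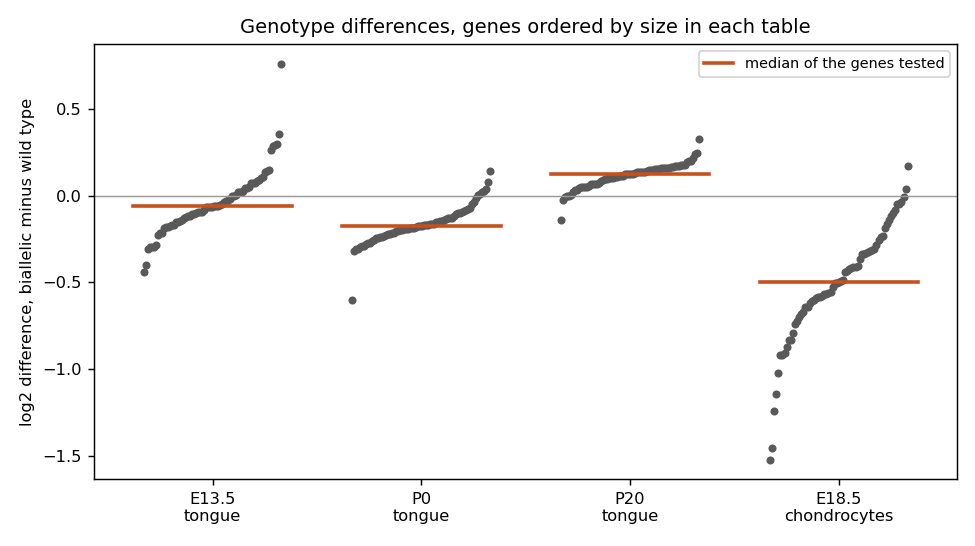
Log2 difference of biallelic minus wild type for each tested gene (grey points, ordered by size within a table) with the median (orange line) in the 3 tongue tables and the chondrocytes. Medians are -0.06, -0.18, 0.13 and -0.50 from left to right, and no point passed an adjusted p of 0.05.

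The change of the genotype effect between stages was tested in 1 fit of the 18 tongue libraries. From P0 to P20 it was positive in 68 of 71 genes, with a median of 0.29 against -0.05 for all genes. An unadjusted p under 0.05 was found for 4 genes (Cox7a2, Ndufa8, Sdha and Atp5c1), against 1.36% of all genes. The largest of these was Ndufa8 at 0.53 ± 0.23 and the smallest p that of Cox7a2 at 0.48 ± 0.18 (unadjusted p = 0.0194), while every adjusted p was 1. From E13.5 to P0 it was negative in 53 of 71 genes (median -0.11, all genes 0.09). Of these, 2 had an unadjusted p under 0.05, against 5.59% of all genes. The smallest adjusted p was 0.594, that of Cox7a1 at -3.20 ± 0.63 (unadjusted p = 9.84e-05, limma). That value rests on 2, 0 and 5 wild type reads against 16, 11 and 9 biallelic reads at E13.5. Adjusted p called 0 of all genes in both contrasts. The P0 libraries enter both contrasts with opposite sign. Averaged over stages, 0 respiratory chain genes were called, against 0.0221% of all genes. Cox7a1 (0.67), Atp5d (0.15) and Atp5j (-0.18 on the log2 scale) had an unadjusted p of 0.0188, 0.0192 and 0.0338 (limma). Of all genes, 2.83% were under 0.05. The Cox7a1 average rests on the same few E13.5 reads, since its difference within stage was -0.60 at P0 and 0.005 at P20.

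In the sorted cells labelled chondrocytes, 65 of 67 tested genes had lower means in biallelic animals, with a median of -0.50 against -0.11 for all genes. Of these, 9 were lower at an unadjusted p below 0.05, against 7.71% of all genes, and 0 had no overlap between groups, against 0.719%. The summed level of the 71 genes was 3280, 3040, 4402, 2356 and 2042 RPM in wild type animals 7 to 11, and 2022, 2196, 1979, 2294, 2653 and 2405 in biallelic animals 1 to 6. Wild type animals 7, 8 and 9 were above every biallelic animal, and 10 and 11 were within the biallelic range. Animals 7, 8 and 9 were left out together because earlier results had set them apart with high values. The direction then turned, with 45 of 66 genes higher in biallelic animals and a median of 0.23, which follows from that choice and supports nothing. Without animal 9 alone 57 of 67 were lower, with a median of -0.26, and 2 were lower at an unadjusted p under 0.05 (4.18% of all genes in that fit). Without animal 11 that number was 45 (14.1% of all genes), and without animal 10 it was 20 (10.1%). With each animal centred on its median gene, 55 of 67 were lower, the median was -0.27 against 0.12 for all genes, and 5 were lower at an unadjusted p under 0.05 (3.50% of all genes).

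The genes with the smallest p followed the same animals. Ndufb5, an accessory subunit of complex I, gave 23.7, 17.95, 30.3, 13.3 and 13.3 RPM in wild type and 9.69, 10.1, 8.82, 13.1, 14.7 and 12.6 in biallelic animals, a difference of -0.72 ± 0.27 (adjusted p = 0.423). Uqcrq, a small subunit of complex III, gave 48.5, 25.6, 77.9, 21.2 and 14.0 against 13.7, 16.7, 12.8, 18.7, 19.9 and 17.6 RPM, a difference of -0.92 ± 0.36 (adjusted p = 0.423). In both genes wild type animals 7, 8 and 9 lay above all biallelic animals and animal 11 among them; animal 10 lay among them for Ndufb5 and just above them for Uqcrq. Ndufa5 and Atp5s differed by -1.46 ± 0.55 and -1.52 ± 0.56 at levels of a few RPM. Spearman's rho between transcript length and difference was 0.52 across the 67 genes, short transcripts being lower, and genes under 500 nt had a median of -0.91 (all genes of that length, -0.54). With the length trend removed 49 of 67 were lower, with a median of -0.20.

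Leukocyte markers were high on average in wild type animals 7, 8 and 9 too. The mean log2 RPM of the leukocyte markers was 7.91, 7.28 and 7.65 in wild type animals 7, 8 and 9, against 4.66 and 5.59 in animals 11 and 10 and 4.06 to 6.72 in the biallelic animals. Between genotypes, 7 of 7 mesenchyme markers (median -0.80) and 8 of 10 cell cycle genes (median -0.53) had lower means in biallelic animals, and 8 of 11 chondrocyte markers had higher means, 4 of them at an unadjusted p under 0.05. Of 18 leukocyte markers tested, 10 were lower and 8 higher, 5 and 3 of them at an unadjusted p under 0.05. The summed levels overlapped between genotypes. The 19 leukocyte markers summed to 4565 to 6118 RPM in wild type and 4063 to 5515 in biallelic animals, and the 16 chondrocyte markers to 244.6 to 641.1 and 395.2 to 1066 RPM. The leukocyte sum was thus above the chondrocyte sum in every animal, and the makeup of the sorted cells was not tested. Col2a1, the main collagen of cartilage, stood at 154 to 433 against 245 to 760 RPM, and Ptprc, the pan-leukocyte antigen CD45, at 234 to 543 against 336 to 482. The part of these cells and of the cell cycle in the respiratory chain differences was not tested. The muscle forms of complex IV were near the detection limit, with Cox8b at 0 reads in every animal and Cox7a1 at 0.102 to 1.02 RPM. The 13 mitochondrially encoded subunits, which the same complexes need, summed to 4199, 4247, 6863, 4575 and 5324 RPM in wild type and 5120, 4863, 5604, 6222, 7716 and 5582 in biallelic animals.

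**Figure D5:**
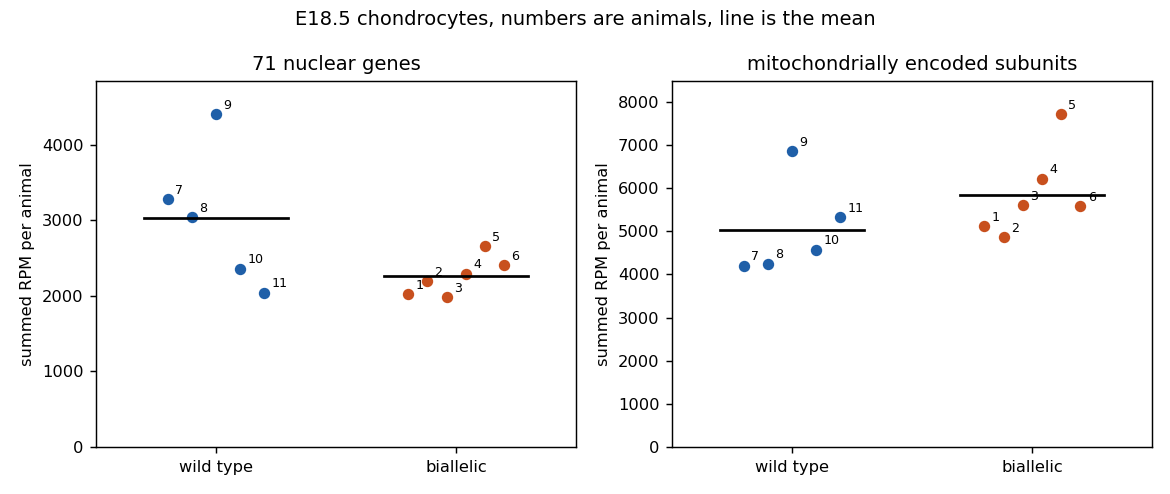
Summed RPM per animal of the 71 nuclear genes (left) and of the mitochondrially encoded subunits (right) in E18.5 chondrocytes, with animal numbers beside the points and the mean as a line. On the left wild type animals 7, 8 and 9 lie at 3040 to 4402 RPM and all other animals at 1979 to 2653.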

How the data were processed

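Values were deposited as log2 RPM per gene, 1 table per tongue stage and 1 for chondrocytes. The submitters' processing notes list Trim Galore 0.4.2, TopHat2 2.1.0 for tongues, HISAT2 for chondrocytes, and the build GRCm38. The read counter, strand setting and annotation were not given in the sources used here. Genes overlapping others (Ndufa13, Ndufb2, Atp5o, and Atp5d on the opposite strand) are therefore uncertain. RPM were whole multiples of 1 read within 0.05 for 100% of values under 1000 reads, and a gene with 0 reads had been given 0.9 by the authors. Listed genes held 32.15% to 37.66% of reads in tongues and 55.65% to 66.17% in chondrocytes. For 4 biallelic chondrocyte animals the labels list 2 libraries but the table has 1 column, counted once. No libraries were duplicates (chi-square per degree of freedom at least 7.276).

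The filter kept genes with 1 RPM in 3 or more libraries of a tongue table (chondrocytes, 5 animals). The test was limma 3.58.1 under R 4.3.3 (moderated test with trend, two-sided, Benjamini-Hochberg over all genes, threshold 0.05). Tongue stages were fitted together over the genes passing in any tongue table. Tested were 70 of the 71 genes in each tongue table, 71 between stages and 67 in chondrocytes. The fit was tested on simulated data. Of the 71 genes, 69 passed in all 3 tongue tables, Cox7a1 in 2 and Cox6b2 in 1. Ratios were tested by exact permutation (scipy 1.17.1). Transcript lengths and motifs came from annotation of the same build. Genes named were the 8 of largest called rise and the 8 of largest called fall per stage contrast without overlap between groups, the 4 of smallest p per genotype table, the paired isoforms, and the 2 of largest rise and fall in each pathway list, of which not all are printed. Sdha at P0 and further genes were named after their values were seen. The members and lists were chosen with earlier results of these data known. Labels call the replicates biological.

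Alternatives were other scalings, filters, 1 RPM added before the logarithm, voom on recovered reads, no trend, a replicate block, each library left out, and, for stage contrasts, libraries of 1 genotype only. Equal replicate numbers did not pair the samples: the correlation of deviations ran from -0.647 to 0.362 over 9 pairs.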

Additional observations from a re-analysis of the deposited data

Results flagged for a closer look

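Among 6 quantities checked in 12 groups of 4 to 10 samples, 1 sample stood apart. Atp5s in chondrocytes was 1.59 RPM in biallelic animal 6 and 0.554 to 0.914 RPM in the other 5 biallelic animals. The gap to its nearest neighbour was large relative to the range of the group. Chance gives about 1 such sample in 20 groups.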

How the results depend on the processing

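Genotype calls stayed at 0 in every table under every alternative run. For single genes, 1689 of 1707 values kept their direction and side of the threshold, 15 lost the call and 3 reversed. With the length trend removed (chosen after the data were seen), from E13.5 to P0 Atp5k became 0.288 in wild type and 0.396 in biallelic tongue and Uqcrh 0.131 in wild type; 46 genes rose and 5 fell in wild type and 38 rose and 4 fell in biallelic tongue, and from P0 to P20 in wild type 38 rose and 4 fell. Median centring and listed-gene totals each gave 20 rising from E13.5 to P0 in wild type. The count falling from P0 to P20 (2 in each genotype) was 1 with a 5 RPM filter or 1 RPM added in both genotypes, 1 in wild type with libraries of that genotype only, 1 in biallelic tongue without the filter, and 1 to 2 when libraries were left out. Genes whose genotype effect changed from E13.5 to P0 numbered 0 to 1 when libraries were left out (1 without E13.5 wild type replicate 2 or 3). The isoform ratio Cox6b2 over Cox6b1, E13.5 to P0 (change of -0.656 on the log2 scale), was -0.0198 with 1 RPM added (exact permutation p = 0.915), -0.568 with the length trend removed (exact permutation p = 0.055), -0.656 with a replicate block (exact permutation p = 0.0625), and -0.813 to -0.415 when libraries were left out. The isoform ratio Atp5g3 over Atp5g2, P0 to P20, changed by 0.128 to 0.206 when libraries were left out. The replicate block changed no other call of the counts above by over 1.5 times; with it, 3 genes were at an unadjusted p under 0.05 at P0. Cox6b2 and E13.5 Cox7a1 rest on few reads, and chondrocyte values on shallow libraries. The cause of these changes was not tested.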

Other observations

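Mean levels of the mitochondrially encoded subunits in the chondrocytes lay far apart for some genes and close for others, and none had an adjusted p under 0.05. The mitochondrial genes mt-Co2, mt-Co3 and mt-Atp6 had means of 0.662, 1.33 and 1.8 RPM in wild type and 87.9, 163 and 233 RPM in biallelic animals, and mt-Atp8 and mt-Nd4l 0.721 and 0.556 against 59.2 and 11.8 RPM, each with an adjusted p of 0.423 (limma). These wild type means were within or just above the 0.38 to 1.02 RPM that 3 reads equalled in those libraries. The log2 differences had wide errors, with SEs from 1.09 (mt-Nd4l) to 1.51 (mt-Atp6). The cause of these gaps was not tested. The most abundant, mt-Co1, had means of 3050 and 3720 RPM (adjusted p = 0.516). Means were lower in biallelic animals for 6 of the 13, with mt-Nd1 at 455 against 336 RPM, mt-Nd2 at 105 against 69.9, mt-Cytb at 745 against 574, mt-Nd5 at 371 against 312, mt-Nd6 at 43.9 against 29.7 and mt-Nd4 at 262 against 252 RPM (wild type first). In the same libraries none of the 67 nuclear genes tested had an adjusted p under 0.05, and 9 had an unadjusted p under 0.05.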
